A study of Mus musculus with 11 samples.

Results

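The miR-106a-363 cluster is a run of 6 microRNA (miRNA) genes on the mouse X chromosome, and its members were taken by name from a table of 3859 small RNA genes measured while embryonic fibroblasts (MEF) were reprogrammed to pluripotency. All 6 named genes, Mir106a, Mir18b, Mir20b, Mir19b-2, Mir92-2 and Mir363, were listed. The table held 11 libraries, 1 for each stage. They were MEF without doxycycline, 8 successive days with it, induced pluripotent stem cells (iPSC) kept as a line, and embryonic stem cells (ESC). Every library is labelled Mbd3f/-, that is 1 floxed and 1 deleted allele of Mbd3, a NuRD chromatin complex subunit, and the MEF carried a doxycycline-inducible Oct4, Klf4, Sox2 and Myc cassette. The ESC column is named V6.5 in the table, so the genotype of that library is unclear. From day 3 on, and in both lines, the cells were plated on irradiated human foreskin fibroblasts, so the feeder cells and the later days cannot be told apart. The first medium held serum and LIF, under low oxygen. MEK and GSK3 inhibitors (2i) were added later in serum-free medium, and the sources differ on when. Both lines were harvested from 2i and LIF.

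The cluster is a copy of the miR-17-92 cluster on chromosome 14, and another copy, miR-106b-25, lies on chromosome 5. In each copy 1 long primary transcript is cut into hairpins, and a hairpin yields a mature miRNA of about the length of an RNA-silencing guide that recognises target messages mainly through its seed, bases 2 to 8 from its 5′ end. The miR-17-92 copy is known for promoting proliferation and is induced by Myc, and the X-linked copy is known from embryonic stem cells and early embryos.

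The 6 hairpins lie on the minus strand within 875 bp (GRCm38, chromosome X, 52741693 to 52742567), with gaps of 46 to 138 bp between neighbours. Mir106a comes first in the direction of transcription and overlaps the end of the annotated noncoding transcript Kis2 (52742563 to 52744960), and Mir363 comes last. No other transcript of the table lay within 100 kb.

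The mature sequences show which members can be told from their relatives and which cannot. They are from RefSeq (GRCm38.p6) for all 6 members and the 9 genes of the sister clusters, and the capitals mark the seed. The AAAGUGC seed is shared by 2 members and by 4 genes of the sister clusters.
miR-106a-5p (Mir106a): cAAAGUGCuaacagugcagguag
miR-20b-5p (Mir20b): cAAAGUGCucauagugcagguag
miR-17-5p (Mir17): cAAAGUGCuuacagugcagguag
miR-20a-5p (Mir20a): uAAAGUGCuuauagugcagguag
miR-93-5p (Mir93): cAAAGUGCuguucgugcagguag
miR-106b-5p (Mir106b): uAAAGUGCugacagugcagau

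Counted from 1 at the 5′ end, miR-106a differs from miR-17 by A10U alone, and miR-20b differs from miR-20a by C1U and C10U. The other 3 seeds are those of the remaining members and their relatives.
miR-18b-5p (Mir18b): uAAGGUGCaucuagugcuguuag
miR-18a-5p (Mir18): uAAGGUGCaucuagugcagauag
miR-19b-3p (Mir19b-2 and Mir19b-1): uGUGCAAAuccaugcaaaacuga
miR-19a-3p (Mir19a): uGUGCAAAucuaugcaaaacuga
miR-92a-3p (Mir92-2 and Mir92-1): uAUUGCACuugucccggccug
miR-363-3p (Mir363): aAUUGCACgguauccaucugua
miR-25-3p (Mir25): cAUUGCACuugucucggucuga

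Mir18b and Mir18 differ at U18A and U20A, and miR-363 and miR-25 differ at 13 of 22 positions, all outside the seed. Mir19b-2 and Mir92-2 make the same mature miRNA as Mir19b-1 and Mir92-1 of the miR-17-92 cluster. A read of the mature miRNA alone therefore cannot be placed. The hairpins of these pairs, 75.0% and 66.3% identical, differ outside it. The values below are for the whole hairpin gene and do not separate its arms.

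The deposited values are FPKM, which adjust fragments for the length of the transcript and for the library's mapped total. Low values came in steps, which gave the worth of 1 read from other transcripts of the same length. It was 89.0 FPKM for Mir106a in MEF, where depth was lowest, and 52.9 FPKM on day 3. For Mir20a, of 107 nt against 65 nt for Mir106a, 1 read was worth 12.4 FPKM on day 3. The worth thus fell more steeply than division by length alone would give. FPKM ratios between genes of unlike length therefore differ from read ratios. Depth ranged from 0.594 times that of day 3 in MEF to 1.12 times on day 7. All 35 member values under 1000 reads were whole reads within 0.05 read. In the sister clusters, Mir17, Mir18, Mir19a and Mir20a each had 1 value under 1000 reads, in MEF, and it was not whole (522.559 reads for Mir18). Mir19b-1, Mir92-1, Mir106b, Mir93 and Mir25 had 0 such values to check. Reads given below for genes of the sister clusters are thus estimates. The 11 listed pluripotency miRNAs, from miR-290 and miR-302 families, summed to 21869147 FPKM in iPSC and 17739271 in ESC. On day 8 they summed to 46901740 FPKM and in MEF to 21449. Mir295 made up most of the day 8 sum, at 31201600 FPKM, and was listed at 0 in iPSC and ESC. Mir302a, Mir302b, Mir302c, Mir302d, Mir292 and Mir294 were also higher on day 8 than in both lines. For Mir302d this was 160446 FPKM, against 92866 in iPSC and 132602 in ESC. Mir290, Mir291a and Mir293 were lower on day 8 than in both lines, and Mir367 lay between the lines. The sums therefore do not show that these miRNAs as a group were higher on day 8 than in the lines. The 7 fibroblast and mesenchymal miRNAs summed to 26299230 FPKM in ESC and 5998227 in iPSC, against 25207797 in MEF. Mir143, at 17316200 FPKM in ESC, was listed at 0 in MEF. Without it the sums were 8983030 FPKM in ESC and 2071027 in iPSC, against the same 25207797 in MEF. The 5 blood miRNAs summed to 777877 FPKM in iPSC, mostly Mir142 at 563551, and to 291309 in ESC, against 91180 on day 8 and 260710 in MEF. Mir150 was also higher in the lines, at 214088 FPKM in iPSC and 102402 in ESC, against 2493 in MEF. Mir223, which marks myeloid cells, went the other way, from 24400 FPKM in MEF to 0 in both lines. Mir144 and Mir451 were at most 1074 FPKM in any library. The part of these lists in the values below was not tested.

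Mir106a, which carries the miR-17 seed, was close to absent in MEF and highest in the pluripotent lines. It stood at 89.0 FPKM in MEF, at 2398, 7487, 5232, 5927, 5348, 8418, 5896 and 20873 FPKM on days 1 to 8, at 161192 in iPSC and at 155952 in ESC. In reads, these were 1 in MEF, 29 on day 1, 99 on days 2 and 3 each, 416 on day 8, about 2319 in iPSC and about 2688 in ESC. MEF was thus at the level of a single read, and the highest day of the course was still below both lines.

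Mir20b, the other member with that seed, was also lowest in MEF and highest in the lines. It was at 149 FPKM in MEF, the worth of 3 reads, and at 971, 3086, 2245, 3723, 3357, 5960, 5694 and 18931 FPKM on days 1 to 8. It reached 148993 FPKM in iPSC and 153449 in ESC. Its order of stages had ESC and iPSC on top, then day 8, and MEF at the bottom, and iPSC and ESC differed by a ratio of 0.971 (95% interval from counting error 0.930 to 1.01).

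Mir18b, a member of the miR-18 family, was at 268 FPKM in MEF, the worth of 6 reads. On days 1 to 8 it was at 1164, 3762, 3586, 5531, 2729, 3243, 1304 and 5547 FPKM. In iPSC it was at 139023 FPKM and in ESC at 84522 FPKM. Days 4 and 8 were its highest in the course and were nearly level, and both lines were far above them.

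Mir363, of the miR-25 and miR-92 seed, was at 2333 FPKM in MEF, the worth of 39 reads. It was at 4723, 14583, 19283, 32956, 24325, 40630, 22183 and 96184 FPKM on days 1 to 8, and at 1278920 in iPSC and 1132780 in ESC. It was the member with the largest difference in FPKM between day 8 and the lines among the 4 whose mature sequence is their own.

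Mir92-2, whose mature miR-92a also comes from Mir92-1, was at 104205 FPKM in MEF. It was at 282617, 612267, 355621, 449130, 313686, 309168, 151500 and 506986 FPKM on days 1 to 8, and at 3070300 in iPSC and 2063540 in ESC. Day 2 was its highest in the course, the library in which Mir92-1 was listed at 0.

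Mir19b-2, of the miR-19 family, was at 49518 FPKM in MEF. It was at 157979, 186040, 213033, 256787, 191202, 229235, 106806 and 113457 FPKM on days 1 to 8, and at 230612 in iPSC and 346709 in ESC. Its iPSC value lay below that of day 4, so it was the only member whose values in the lines overlapped those of the course. The other 5 of 6 were higher in both lines than in all 9 libraries of the course, as were 12.3% of the 1419 transcripts tested.

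**Figure D1:**
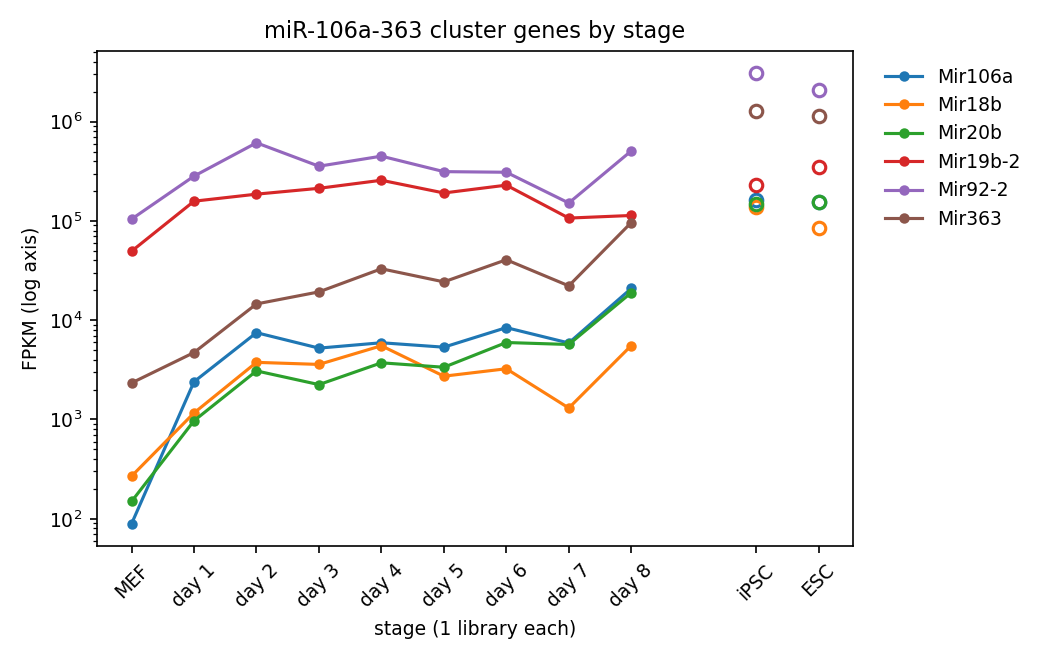
FPKM of the 6 cluster genes (log axis) in the 11 libraries, with joined points for MEF and days 1 to 8 and open circles for iPSC and ESC, 1 library per stage and so no error bars. Mir106a, Mir18b and Mir20b start between 89.0 and 268 FPKM in MEF and reach between 84522 and 161192 FPKM in the lines, while Mir19b-2 stays between 49518 and 346709 FPKM throughout.

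The first comparison asked whether the members moved with time from MEF to day 8. Mir20b, Mir363 and Mir106a rose, and Mir18b, Mir92-2 and Mir19b-2 did not pass the test. Slopes were fitted with limma to log2(FPKM + 10) over 9 libraries with MEF at day 0, and such a fold is too small for low genes. Each stage had 1 library, so the p-values measure the scatter of these libraries around a line and not the spread between cultures. Rising calls at a Benjamini-Hochberg adjusted p under 0.05 were made for 3 of 6 members and for 12.5% of the 1419 transcripts tested. In such bulk libraries, more cells with a miRNA and more of it per cell cannot be told apart.

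Mir20b rose by 0.63 ± 0.12 per day (log2, SE over 9 libraries; limma adjusted p = 0.00598), and Mir363 rose by 0.52 ± 0.10 (adjusted p = 0.00792). Both kept the call in all 9 fits that left out 1 library, with slopes of 0.46 to 0.69 for Mir20b and 0.43 to 0.61 for Mir363. Mir106a rose by 0.59 ± 0.18 (limma adjusted p = 0.0455), but its call was lost without MEF, day 1, day 3, day 4, day 5, day 6, day 7 or day 8 (adjusted p from 0.0530 to 0.125). Without MEF, where it had 1 read, its slope was 0.26. Mir18b had a slope of 0.28 ± 0.15 (adjusted p = 0.204), and 0.079 without MEF.

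Mir92-2 had a slope of 0.07 ± 0.11 (limma adjusted p = 0.717) and Mir19b-2 of 0.06 ± 0.10 (adjusted p = 0.754). Without MEF these 2 slopes were -0.063 and -0.089. The median slope was 0.40 over the 6 members and 0.02 over all transcripts tested. Within days 3 to 8 alone, 0 of 6 members were called by limma as rising, against 4.65% of all transcripts. The slopes were 0.51 for Mir20b, 0.30 for Mir363, 0.30 for Mir106a, -0.081 for Mir18b, -0.062 for Mir92-2 and -0.23 for Mir19b-2.

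A curve of day and day squared was tested for courses that bend. Mir20b, Mir363, Mir106a and Mir19b-2 passed limma's F-test (adjusted p = 0.00664, 0.00672, 0.0337 and 0.0490), 4 of 6, against 32.6% of all transcripts. The call of Mir19b-2 held without day 1 but not without any other single library (adjusted p from 0.0545 to 0.165), and that of Mir106a was lost without MEF, day 3, day 4 or day 6 (adjusted p from 0.0599 to 0.176). Mir18b passed without day 7 or day 8 (adjusted p = 0.0456 and 0.00909).

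The members went up and down between neighbouring days. All 6 members were higher on day 1 than in MEF, by 2.02-fold for Mir363 to 26.9-fold for Mir106a. The Mir106a ratio was against 1 read and had a counting interval of 4.47 to 1100. All 6 were higher on day 2 than on day 1, by 1.18-fold for Mir19b-2 to 3.23-fold for Mir18b. Among all transcripts tested, 55.67% were higher on day 1 than in MEF and 54.12% on day 2 than on day 1. On day 3, the first stage on human feeder cells, 2 of 6 members were higher than on day 2, Mir363 by 1.32-fold and Mir19b-2 by 1.15-fold, against 41.01% of all transcripts. With libraries scaled to their summed miRNA FPKM it was 3 of 6, with Mir18b at 1.18-fold, against 49.05% of all transcripts. Compared with the day before, 6 of 6 members were higher on day 4, 0 of 6 on day 5 and 5 of 6 on day 6. Of all transcripts, 58.28%, 36.5% and 55.39% were higher at these steps. On the miRNA scale the 3 steps had 5, 2 and 5 of 6 members higher, against 50.11%, 49.82% and 49.68% of all transcripts.

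At the end of the course a dip on day 7 came before a rise on day 8. All 6 members were lower on day 7 than on day 6, as were 72.4% of all transcripts tested, and the ratio of day 7 to day 6 was lowest for Mir18b at 0.402 and highest for Mir20b at 0.955. Days 7 and 8 also had the lowest sums over the table, 136295703 and 165140302 FPKM, against 251945469 to 342448431 in the other 9 libraries. With each library scaled to its summed miRNA FPKM, an alternative added for this step after the data had been seen, 1 of 6 members, Mir18b, was lower on day 7, against 43.9% of all transcripts. All 6 members were higher on day 8 than on day 7, as were 66.8% of all transcripts. Mir363 was 4.34-fold higher (counting interval 3.99 to 4.72), Mir18b 4.26-fold, Mir106a 3.54-fold, Mir92-2 3.35-fold, Mir20b 3.32-fold and Mir19b-2 1.06-fold. On the miRNA scale 5 of 6 were higher on day 8, all but Mir19b-2, against 53.9% of all transcripts.

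The same scaling moved the slopes. It shifted the median slope of all transcripts by 0.13, with 367 rising and 91 falling in place of 177 and 150. The members' slopes on this scale were 0.79 for Mir20b, 0.75 for Mir106a, 0.69 for Mir363, 0.45 for Mir18b, 0.24 for Mir92-2 and 0.23 for Mir19b-2. The first 4 of these passed limma's test on this scale (adjusted p = 0.001, 0.0107, 0.000685 and 0.0286), against 25.9% of all transcripts rising.

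**Figure D2:**
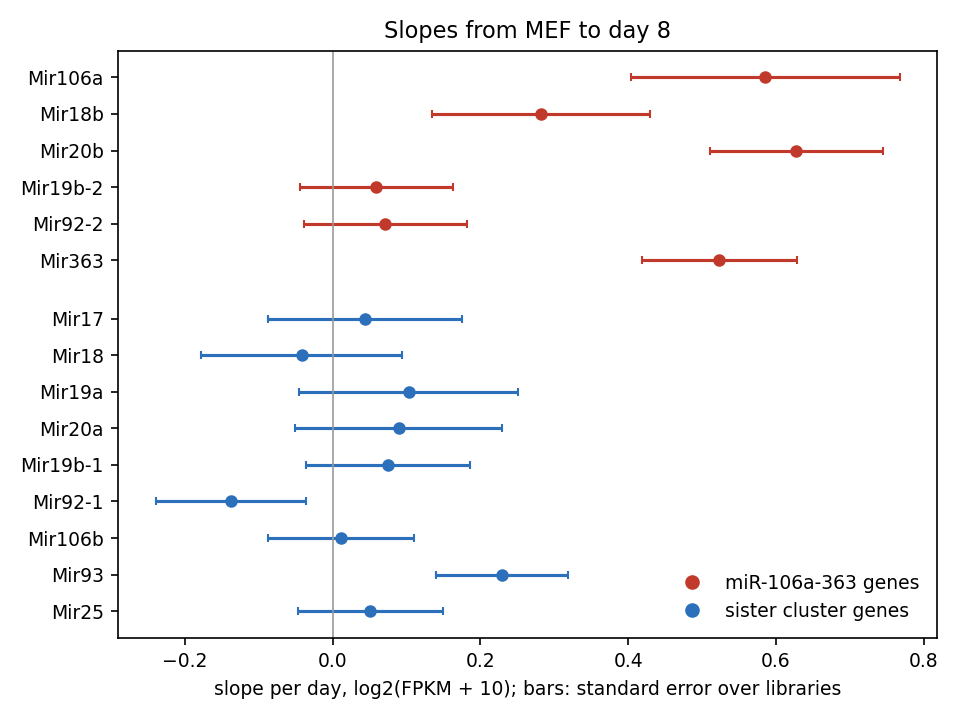
Slope per day of log2(FPKM + 10) from MEF to day 8 for the 6 cluster genes (red) and the 9 genes of the sister clusters (blue), with standard errors over libraries, from a fit in which the values of miR-17-92 genes listed at 0 on day 2 were treated as missing. Mir106a, Mir20b and Mir363 lie between 0.52 and 0.63 per day, and the sister genes between -0.14 and 0.23.

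The second comparison set each member against the gene of the same seed in a sister cluster, to ask whether the X-linked copy moved apart from them. The 4 members with their own mature sequence gained on each relative they were paired with. The shared sequences of Mir92-2 and Mir19b-2 leave that question uncertain for them. The 9 sister genes were Mir17, Mir18, Mir19a, Mir20a, Mir19b-1, Mir92-1, Mir106b, Mir93 and Mir25. None of them was called as rising over the course by limma, against 12.5% of all transcripts tested. The 6 genes of the miR-17-92 cluster were listed at 0 on day 2, and with these zeros kept the median slope of the 9 was 0.50. With them treated as missing, the sister genes' slopes ran from -0.14 for Mir92-1 to 0.23 for Mir93, with a median of 0.05. On the miRNA scale 1 of 9 rose, Mir93 by 0.40 ± 0.08 (limma adjusted p = 0.0056), against 25.9% of all transcripts.

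The log2 ratio of a member to its relative was tested over days with an exact permutation test (two-sided, all orders of the libraries, adjusted over 8 pairs). Day 2 was left out where the relative was listed at 0, which left 8 libraries and 40320 orders. The pairs with the miR-106b-25 cluster had 9 libraries and 362880 orders. Such a ratio is taken within a library, so the scaling of the library cancels but for the 10 FPKM added to both genes. The permutation test treats all orders of the libraries as equally likely, which neighbouring days of a course need not meet. A steady drift within a course can thus give a small p-value. Because no stage was replicated, these p-values measure how ordered the ratios were over days and not the spread between cultures.

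Mir106a gained on Mir17 by 0.63 per day (log2; exact permutation adjusted p = 0.000154). Its reads were 0.00103 of those of Mir17 in MEF, 0.0102 on day 3, 0.120 on day 8, 0.263 in iPSC and 0.227 in ESC. Against Mir106b it gained 0.57 per day (exact permutation adjusted p = 0.000154), and 0.38 per day without MEF, where it had 1 read.

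Mir20b gained on Mir20a by 0.60 per day (exact permutation adjusted p = 0.00115) and on Mir93 by 0.40 per day (adjusted p = 4.41e-05). Its ratio to Mir93 was higher in each library than in the one before, over all 9 libraries of the course. In reads, it was 0.000949 in MEF, 0.00479 on day 3, 0.0141 on day 8, 0.0355 in iPSC and 0.0607 in ESC.

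Mir18b gained on Mir18 by 0.38 per day (exact permutation adjusted p = 0.00368). It had 0.0115 of the reads of Mir18 in MEF and 0.210 on day 8, and the ratio was 1.10 in iPSC and 0.736 in ESC. Mir363 gained on Mir25 by 0.47 per day (exact permutation adjusted p = 0.000154), with 0.00255 of its reads in MEF, 0.0481 on day 8, 0.235 in iPSC and 0.279 in ESC.

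For the members with a shared mature sequence the 2 ratios did not behave alike. Mir92-2 gained on Mir92-1 by 0.26 per day (exact permutation adjusted p = 0.00126). It took 1.46% of the reads of the pair in MEF, 1.58% on day 1, between 2.27% and 3.46% on days 3 to 7, 8.49% on day 8, 17.7% in iPSC and 12.5% in ESC. Mir19b-2 had a ratio slope of 0.0012 to Mir19b-1 (exact permutation adjusted p = 0.83). It took between 49.7% and 51.5% of the reads of that pair in the 10 libraries in which Mir19b-1 had a value. Near-equal shares of 2 genes with 1 mature sequence leave their separate levels uncertain, so the course of Mir19b-2 cannot be read as that of the X-linked copy, and the split of miR-92a reads is uncertain too. How reads that match several loci were counted is not given in the sources used here.

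**Figure D3:**
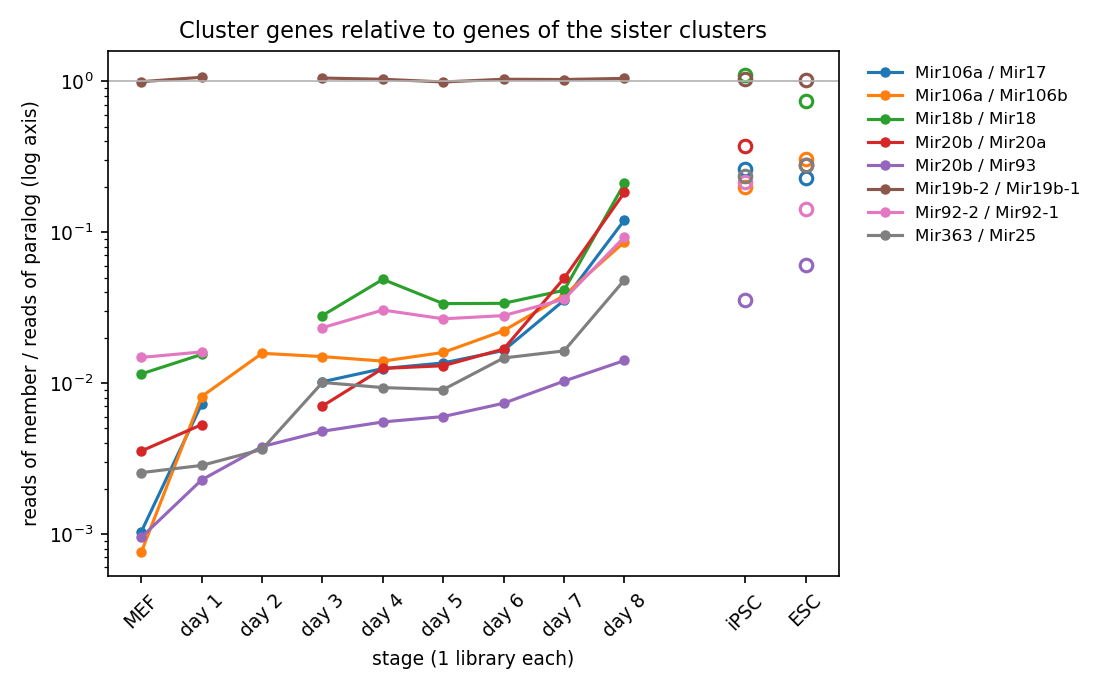
Reads of each cluster gene divided by reads of its relative in a sister cluster (log axis) for 8 pairs in the 11 libraries, with joined points for MEF and days 1 to 8 and open circles for iPSC and ESC; day 2 is missing for pairs with a miR-17-92 gene, which was listed at 0. Mir19b-2 to Mir19b-1 stays between 0.988 and 1.06, and the other 7 ratios are lowest in MEF and higher on day 8 than on days 1 to 7.

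**Figure D4:**
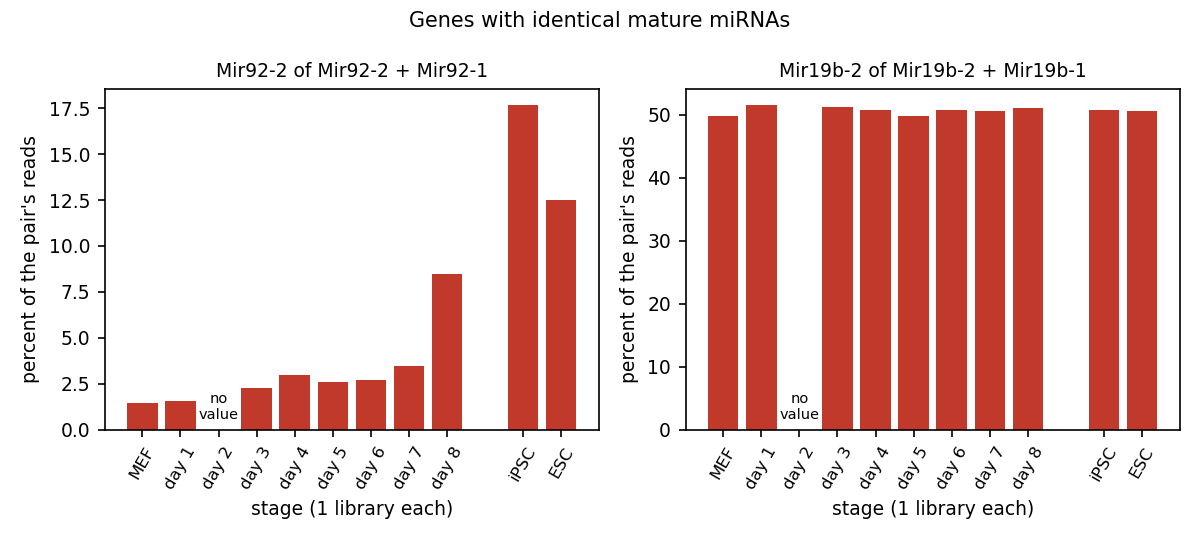
Share of reads taken by Mir92-2 of the Mir92-2 and Mir92-1 pair (left) and by Mir19b-2 of the Mir19b-2 and Mir19b-1 pair (right) in each library, as bars from 0, with no value on day 2. The Mir92-2 share is 1.46% in MEF, 8.49% on day 8 and 17.7% in iPSC, and the Mir19b-2 share stays between 49.7% and 51.5%.

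The third comparison set the pluripotent lines against both ends of the course, with 1 library each and so no test. All 6 members were at least 4-fold higher in both lines than in MEF, as were 7 of the 9 sister genes and 29.7% of all transcripts tested. In iPSC, Mir106a was 1811-fold higher than its single read in MEF (95% interval from counting error, exact, 325 to 71543), Mir20b 998-fold (341 to 4842), Mir363 548-fold (401 to 771) and Mir18b 518-fold (238 to 1412). In ESC the ratios to MEF were 1752 for Mir106a, 1028 for Mir20b, 486 for Mir363 and 315 for Mir18b. Mir92-2 was 29.5-fold higher in iPSC and 19.8-fold in ESC than in MEF, and Mir19b-2 4.66-fold and 7.002-fold. The 6 genes of the miR-17-92 cluster were between 2.03-fold and 9.50-fold higher in iPSC than in MEF, and Mir106b, Mir93 and Mir25 between 5.94-fold and 26.7-fold. Such intervals cover counting error only, since amplified reads are not independent molecules.

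Day 8 remained well below the lines for the members with their own mature sequence. At least 4-fold higher in both lines than on day 8 were 5 of 6 members, against 1 of the 9 sister genes and 9.73% of all transcripts. Mir92-2 lay just inside that limit, at 6.06-fold in iPSC and 4.07-fold in ESC, and Mir19b-2 lay outside it at 2.03-fold and 3.06-fold. Mir18b was 25.1-fold higher in iPSC (counting interval 21.9 to 28.8) and 15.2-fold in ESC than on day 8. Mir363 was 13.3-fold and 11.8-fold higher, Mir20b 7.87-fold and 8.11-fold, and Mir106a 7.72-fold and 7.47-fold.

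The size of that gap depended on the scaling. On the miRNA scale 2 of 6 members, Mir18b and Mir363, were at least 4-fold higher in both lines than on day 8, against 4.58% of all transcripts. There Mir18b was 10.9-fold higher in iPSC and 7.17-fold in ESC, Mir363 5.79-fold and 5.55-fold, Mir20b 3.43-fold and 3.82-fold, and Mir106a 3.36-fold and 3.52-fold. Mir19b-2 was at 0.885 times its day 8 level in iPSC and 1.44 times in ESC on that scale. Between the lines, Mir18b and Mir92-2 were higher in iPSC than in ESC by 1.64-fold and 1.49-fold, Mir363 by 1.13-fold and Mir106a by 1.03-fold (counting interval 0.977 to 1.09), and Mir19b-2 was at 0.665 times its ESC level. On the miRNA scale Mir106a was at 0.956 times its ESC level in iPSC, the opposite direction.

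**Figure D5:**
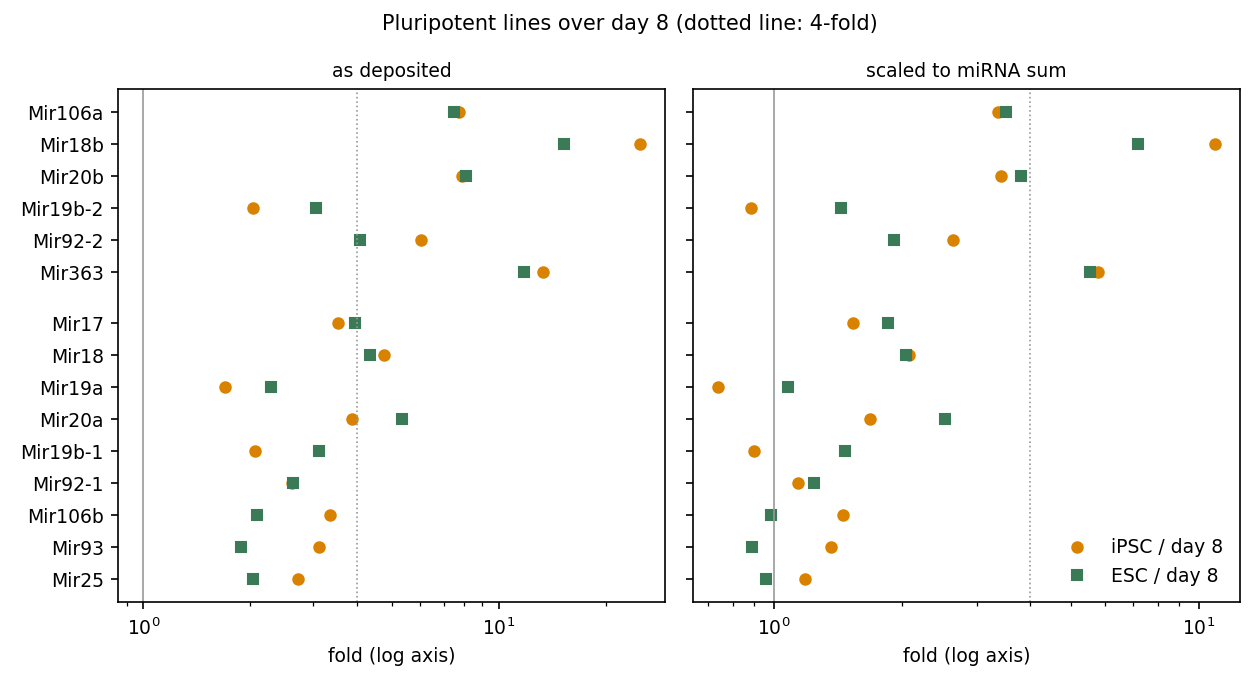
Fold of iPSC (circles) and ESC (squares) over day 8 on a log axis for the 6 cluster genes (top) and the 9 sister genes, as deposited (left) and with each library scaled to its summed miRNA FPKM (right), 1 library per stage. Mir18b is highest in both panels, at 25.1-fold and 10.9-fold in iPSC, and Mir19b-2 is the lowest member, at 2.03-fold and 0.885-fold in iPSC.

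The members varied together to different degrees. Over the 11 libraries, Pearson's r of log2(FPKM + 10) lay between 0.94 and 0.98 for the 6 pairs among Mir106a, Mir18b, Mir20b and Mir363, and between 0.83 and 0.96 over the 9 libraries of the course alone. Mir19b-2 had r of 0.63 with Mir363 and 0.75 with Mir106a over 11 libraries. Mir18b and Mir92-2 had r of 0.98. The libraries share depth and scaling across genes, so these are descriptions without a test.

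The mean course of the members over the 11 libraries was compared with 1404 other tested transcripts. The genes of both sister clusters were left out, so their likeness to that course was not ranked. The 5 most alike among the 1404 were Mir301 (Pearson r = 0.95), Mir32 (0.93), the H/ACA box snoRNA Snora64 (0.93), Mir101a (0.92) and Mir1199 (0.92). Mir301 was at 1217760 FPKM in iPSC and 790812 in ESC, against 472859 on day 8 and 188706 in MEF. Mir32, which shares the AUUGCAC seed with Mir363 and Mir92-2, was at 36157 FPKM in iPSC and 32971 in ESC, against 17141 on day 8 and 3557 in MEF.

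Outside the 3 clusters, 3 other tested genes carry a seed of a member, all the AUUGCAC seed of miR-363 and miR-92a. Of these, 1 of 3 rose, against 12.5% of all transcripts tested. Mir367, the last gene of the pluripotency cluster miR-302-367, rose by 0.87 ± 0.24 per day (limma adjusted p = 0.0276). It was listed at 0 in 3 libraries (MEF, day 1, day 5) and lay between 37.9 and 330 FPKM on days 2, 3, 4 and 6. Its day 8 level of 3135 FPKM compares with 1635 in iPSC and 3236 in ESC. Mir32 had a slope of 0.25 ± 0.08 (adjusted p = 0.0557) and Mir92b of -0.26 ± 0.16 (adjusted p = 0.31). In the lines, Mir92b was at 875007 FPKM in iPSC and 455879 in ESC, against 375277 on day 8 and 261506 in MEF, with 2656840 on day 2.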

How the data were processed

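The authors deposited FPKM per small RNA gene, in 1 column per library, with 0 columns of other samples. Per the submitters' processing notes, CASAVA 1.8.2, Bowtie2 2, Cufflinks 2.2.1 and the build mm10 were used, without roles. For the annotation, the table's filter and the counting of reads with several matches, no source used here gives details. Of the 3859 gene IDs, 3717 matched GENCODE vM21 (GRCm38).

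Relative depth and reads were recovered from the steps of low FPKM values in transcripts of the same length, without the members and their sister genes. Because FPKM is not a count, limma 3.58.1 in R 4.3.3 was fitted to log2(FPKM + 10) for 1419 transcripts that averaged 10 FPKM or more over 11 libraries (two-sided, 7 residual and 2.53 prior degrees of freedom), with Benjamini-Hochberg adjustment over all of them. The fit was tested on simulated data. Exact permutation tests, exact binomial (Clopper-Pearson) intervals at 95% and correlations used Python 3.11.15 and scipy 1.17.1.

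Named genes were the members, the genes of both sister clusters, neighbours within 100 kb, the 5 other transcripts most like the members' mean and seed relatives. Members, lists and tests were chosen with earlier results of these data known. Alternatives were other pseudocounts, filters, scalings and libraries left out; those on end points and single steps were added after the data had been seen. A common scale for miRNAs was the summed FPKM of miRNA genes without the 6 abundant transcripts listed at 0 in some library.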

Additional observations from a re-analysis of the deposited data

How the results depend on the processing

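With 1 library per stage the spread between cultures is unknown, and MEF values of 1 to 6 reads limit the early course of Mir106a, Mir20b and Mir18b. No paired analysis was possible because each stage has 1 library. The causes of the changes below were not tested. All values are slopes per day (log2) or limma adjusted p-values.

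The slope of Mir106a lost its call with a pseudocount of 1 (0.59), with no filter (0.59), without days 7 and 8 (0.76) and within days 3 to 8 (0.30), and ranged from 0.26 to 0.67 over the fits that left out 1 library. Within days 3 to 8, in fits with 6 libraries, the calls of Mir20b (0.51) and Mir363 (0.30) were lost too, with slopes still positive. Thus 0 members were called as rising there, against 4.65% of all transcripts. The slopes of Mir18b (-0.081), Mir19b-2 (-0.23) and Mir92-2 (-0.062) turned. Scaled to the miRNA sum, Mir18b was called at 0.45. Leaving out 1 library gave slopes of -0.089 to 0.13 for Mir19b-2 and -0.063 to 0.15 for Mir92-2, and ratio slopes of Mir19b-2 to Mir19b-1 of -0.0051 to 0.0055. The other 7 ratio slopes kept their direction and call with pseudocounts of 1 and 100 and without each library.

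In the F-test of day and day squared, Mir106a had an adjusted p of 0.0511 with no filter, 0.0543 after quantile normalization and 0.0249 to 0.176 with 1 library left out. Mir19b-2 had 0.0639 with a pseudocount of 1, 0.079 after quantile normalization and 0.0417 to 0.165 with 1 library left out. Mir18b had 0.0423 among transcripts of a mean of at least 1000 FPKM, 0.0244 on the miRNA scale and 0.00909 to 0.696 with 1 library left out. The number of members passing was 2 of 6 after quantile normalization, against 477 of all 1419 transcripts. With 1 library left out it was 2 to 4 of 6, against 337 to 471 of all 1419. Of the 9 sister genes, 1 rose on the miRNA scale, 1 after quantile normalization and 0 to 1 with 1 library left out. Of all 1419 transcripts, 367, 180 and 93 to 175 rose in these fits. By the F-test 2 of the 9 sister genes passed on the miRNA scale, 1 after quantile normalization and 3 with values listed at 0 as missing. Of all 1419 transcripts, 532, 477 and 473 passed in these fits. With 1 library left out 0 to 3 of the 9 passed, against 337 to 471 of all 1419. On the miRNA scale, 2 members were at least 4-fold higher in both lines than on day 8, against 4.58% of all transcripts. On that scale 1 member was lower on day 7 than on day 6, against 43.9% of all transcripts.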
